A study of Mus musculus with 5 samples.

Results

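The cells described here were CD8 T cells from mouse 4T1 mammary tumors that carried transcripts of Itgae or Ly6c2, and there were 661 of them among 6810 kept barcodes of 2 T cell libraries. Members were chosen by measured UMI counts of marker genes, so those genes are no finding here. A member had at least 1 unique molecular identifier (UMI, 1 counted RNA molecule) of Cd3d, Cd3e or Cd3g, at least 1 of Cd8a or Cd8b1, none of Cd4, at least 1 of Itgae or Ly6c2 and none of Havcr2. Cells with 2 or more of 5 cycling genes (Mki67, Top2a, Birc5, Ccna2 and Ube2c) or 3 or more of 7 interferon-response genes (Ifit1, Ifit2, Ifit3, Isg15, Rsad2, Usp18 and Cmpk2) were left out. The library of sensitive tumors held 376 members and that of resistant tumors 285, out of 3144 CD8+ T cells that passed the Cd3, Cd8 and Cd4 conditions and 11119 barcodes in all 5 libraries of the series.

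The study asked how T cells differ between tumors that respond to doxorubicin (DOX), a DNA-damaging chemotherapy, and tumors that resist it. 4T1 cells, a triple negative mammary cancer line that carries the Thy1.1 allele according to the methods, were grown in the mammary fat pad of female BALB/c mice, 12 weeks old per the labels. Mice of both groups received DOX intravenously at 5 mg/kg in 3 treatments 3 days apart, and the tumors were classed as sensitive or resistant. T cells were enriched by magnetic depletion of other immune cells and of CD90.1+ cancer cells, and cells of 3 tumors were pooled into 1 library per group. The mice within a pool could not be told apart and there was no untreated T cell library, so differences between the libraries had no replicate check and no p-value is given. All intervals are 95% intervals for counting error only.

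Itgae encodes the alpha chain of CD103, which pairs with the beta 7 integrin chain (Itgb7) and binds E-cadherin on epithelial cells. CD103 and CD49a (Itga1), a collagen receptor, are widely used to recognize T cells that stay in a tissue. Ly6C, the product of the neighboring genes Ly6c1 and Ly6c2, is a small membrane-anchored protein of effector and memory CD8 T cells and of monocytes, and the granzymes are proteases that killer T cells release from their granules together with perforin (Prf1).

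Before any comparison, the label was checked against marker genes. The rule asked for a single UMI of a Cd3 and of a Cd8 gene, and most members held many more. A member had a median of 21 Cd3 UMIs if sensitive and 18 if resistant, and a median of 12 and 10 Cd8a and Cd8b1 UMIs. Ly6c2 was the more common of the 2 choosing genes. It was seen in 309 of 376 sensitive and 208 of 285 resistant members, with at most 17 and 20 UMIs in a cell. Itgae was seen in 141 and 133 members, with at most 8 UMIs in a cell of either library. By these 2 genes, 67 sensitive and 77 resistant members were Itgae-only, 235 and 152 were Ly6c2-only, and 74 and 56 held both transcripts.

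**Figure D1:**
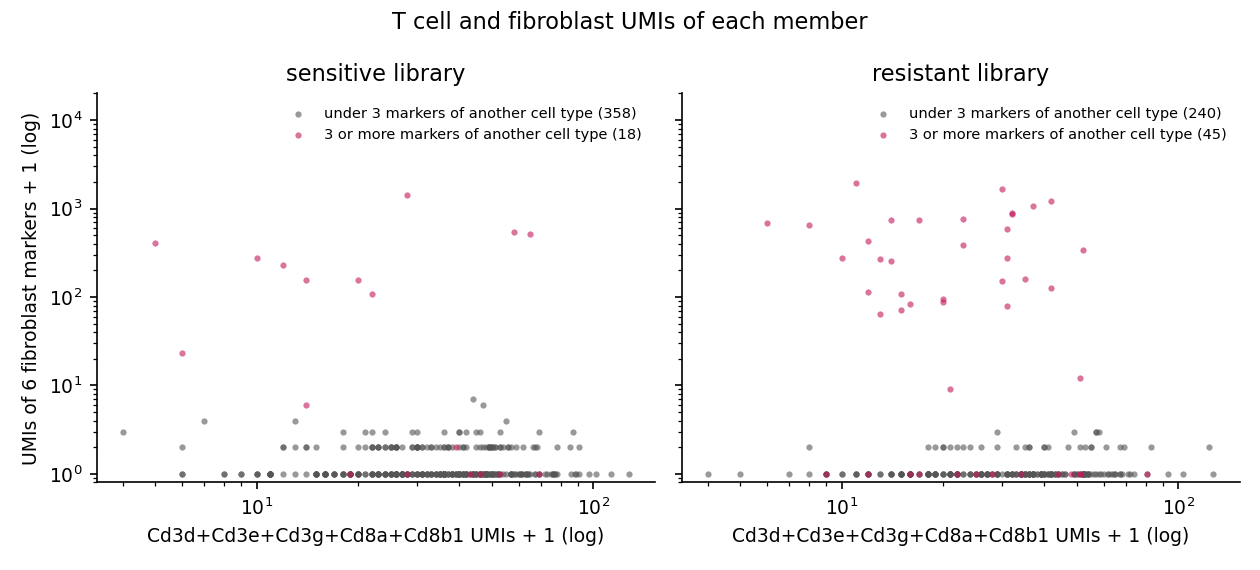
Summed UMIs of Cd3d, Cd3e, Cd3g, Cd8a and Cd8b1 (horizontal) and of the 6 fibroblast markers (vertical) in each member, on log axes, with 1 panel per T cell library. Points are cells, and barcodes with 3 or more markers of another cell type are drawn apart. In the resistant library 37 of the 152 Ly6c2-only members were of that kind.

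Part of the barcodes that met the rule also carried genes of other cells. At least 3 markers of 1 other cell type were present in 18 of 376 sensitive members (4.79%), which held 10.6% of the members' UMIs. In the resistant library it was 45 of 285 (15.8%), with 35.2% of the UMIs. Fibroblast genes were the most frequent, in 11 sensitive and 32 resistant barcodes, and macrophage or dendritic cell genes came next. Levels are in CPM, where the UMIs of all genes, summed over the cells of a class, come to 1e+06. The summed level of the 6 fibroblast markers (Col1a1, Col1a2, Col3a1, Dcn, Lum and Sparc) was 2356 CPM in sensitive and 9256 CPM in resistant members. Without these barcodes it was 85.4 and 35.6 CPM.

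Of 6 B cell markers 3 had UMIs in sensitive and 2 in resistant members, at a summed level of 28.4 and 24.3 CPM, and Cd79a and Ms4a1 were among those at 0. All 3 hemoglobin genes were at 0 UMIs in the members of both libraries. A few members held transcripts of other T cell kinds. Foxp3, the defining factor of regulatory T cells, was present in 10 sensitive and 6 resistant members, and Trdc, the constant segment of the gamma-delta receptor, in 16 and 1. Values are for all members unless said otherwise, and main results are also given for the 598 marker-filtered members (358 sensitive and 240 resistant) that remain without the other-cell barcodes. This filter was added after the values had been seen. The 2 libraries shared 31 barcodes, of which 18 were kept cells and 1 was a member in both.

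Many members lay close to the threshold of the rule. In the sensitive library 114 members held a single UMI of Itgae or Ly6c2, 67 held 2 and 195 held 3 or more, and in the resistant library the numbers were 83, 64 and 138. Sensitive members with a single UMI had Itgb7 at 263 CPM and Pdcd1, the gene of the PD-1 receptor, at 205 CPM. CD8+ T cells just outside, with no UMI of either gene, had Itgb7 at 71.0 and Pdcd1 at 554 CPM. In the resistant library the single-UMI members had Itgb7 at 86.3 and Pdcd1 at 185 CPM, against 32.1 and 421 CPM just outside. A further 25 sensitive and 34 resistant cells were outside by a single Havcr2 UMI. These had Itgb7 at 246 and 117 CPM and Pdcd1 at 525 and 175 CPM.

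The genes of the Ly6 family need a caution about their sequences, since Ly6c2 chose most of the members. Ly6c2 (chr15:75108158-75111970) and Ly6c1 (chr15:75044018-75048830) both lie on the minus strand of build GRCm38.p6, with Ly6a at chr15:74994877-74998031. The longest protein-coding transcripts of Ly6c1 and Ly6c2 shared 803 of 844 aligned bases (95.1%). Of the 351 windows of 50 bases in the last 400 bases of Ly6c2, the stretch that 3′ libraries read, 88 (25.1%) occur whole in a Ly6c1 transcript. Reads of the 2 genes can thus be divided in part only, and the split between Ly6c1 and Ly6c2 is uncertain. The promoters were less alike, with 170 of 284 aligned bases identical (59.9%). The 250 bases before each gene's start are shown because the Ly6c1 level leaned strongly to members with Ly6c2 in the comparisons below. They come from the RefSeq promoter table of build GRCm38.p6, minus strand, at chr15:75111972-75112221 and chr15:75048838-75049087, and capitals mark runs of at least 12 bases that both share.
Ly6c2: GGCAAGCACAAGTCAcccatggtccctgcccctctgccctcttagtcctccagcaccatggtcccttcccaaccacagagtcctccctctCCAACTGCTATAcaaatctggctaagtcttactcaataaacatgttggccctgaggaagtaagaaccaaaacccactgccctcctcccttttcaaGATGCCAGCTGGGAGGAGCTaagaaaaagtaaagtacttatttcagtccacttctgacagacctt
Ly6c1: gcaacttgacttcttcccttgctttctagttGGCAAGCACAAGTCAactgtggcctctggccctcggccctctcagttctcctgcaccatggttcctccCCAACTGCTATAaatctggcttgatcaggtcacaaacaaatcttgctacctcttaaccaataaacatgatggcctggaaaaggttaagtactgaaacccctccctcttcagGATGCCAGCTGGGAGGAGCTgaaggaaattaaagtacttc
The shared runs cover 47 bases of each promoter.

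Gzma (chr13:113093825-113100981, minus strand), which encodes granzyme A, had the most UMIs of the granule genes that differed by over 2-fold between the libraries. Its promoter at chr13:113100982-113101231 is shown with the letters ACCACA in capitals, the core that RUNX factors of CD8 T cells recognize.
Gzma: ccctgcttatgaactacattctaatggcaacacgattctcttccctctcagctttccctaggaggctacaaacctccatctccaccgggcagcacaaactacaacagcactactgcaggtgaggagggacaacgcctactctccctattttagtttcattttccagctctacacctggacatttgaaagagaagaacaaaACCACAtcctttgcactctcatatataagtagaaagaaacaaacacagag
The letters ACCACA, or TGTGGT on the other strand, occur in 3832 of 27025 mouse promoters of this length (14.2%). They were found 1 time each in the promoters of Gzma and Ly6c2, and in none of those of Ly6c1, Itga1, Itgb7 and Gzmk. Of 8 genes sought, 6 were in the table, and Itgae and Ly6a were not. These matches are letters in a window and no measure of binding.

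The members made up a larger share of the CD8+ T cells in the sensitive library. To compare cells at equal depth, 1000 UMIs were drawn at random from each cell, and 42 sensitive and 7 resistant kept cells with fewer UMIs were set aside. After thinning, 257 of 1315 sensitive CD8+ T cells (19.5%, interval 17.4 to 21.8) and 174 of 1542 resistant ones (11.3%, 9.75 to 13.0) were members, a ratio of 1.73 (1.45 to 2.07). Without thinning the shares were 26.6% and 16.5%. The ratio was 1.75 (1.46 to 2.11) in the marker-filtered cells, and it stayed between 1.62 and 1.87 under the other settings tried.

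Among thinned cells, the libraries parted in the share of Ly6c2-only cells. They were 15.4% of sensitive (13.5 to 17.4) and 6.94% of resistant CD8+ T cells (5.72 to 8.32). Itgae-only cells were 2.89% (2.05 to 3.94) and 3.44% (2.59 to 4.47), and cells with both transcripts 1.29% and 0.908%. The intervals of the last 2 kinds overlapped between the libraries. Without thinning, 74 of 1413 sensitive and 56 of 1731 resistant CD8+ T cells held both transcripts. The thinned shares alone thus do not place the difference in 1 kind. For cells outside the gate, after the same thinning, fibroblasts of these libraries (barcodes with fibroblast genes and no Cd3 or Cd8 UMI, median 12995 and 13692 UMIs) held a Ly6c2 UMI in 10.4% and 21.6% of cells. An Itgae UMI was seen in 0 of 795 and 0 of 560 of them, which by the limit of 3 counts allows shares of up to 0.377% and 0.536%. The resistant fibroblast share of Ly6c2 lay above the share of Ly6c2-only CD8+ T cells. Members with fibroblast genes held a median of 18 and 22.5 Ly6c1 UMIs, against 3 and 2 in all members. Reads of Ly6c1 and Ly6c2 divide in part only, so the fibroblast share is no measure of free RNA alone. The part of free RNA in the Ly6c2-only shares was not tested.

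**Figure D2:**
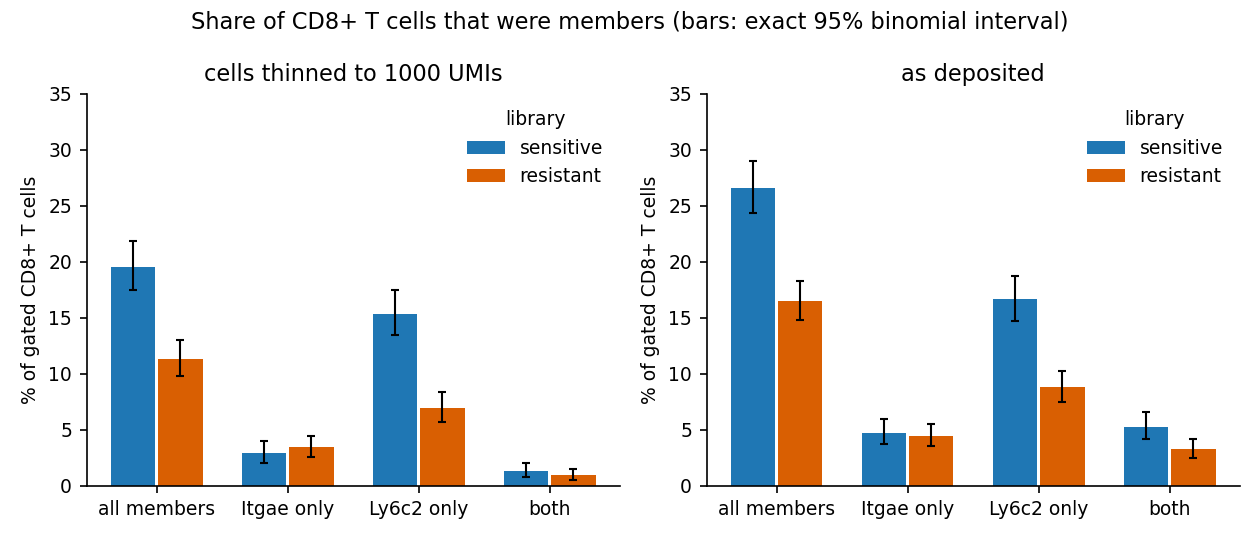
Members and their Itgae-only, Ly6c2-only and double-positive kinds as a percentage of gated CD8+ T cells in the sensitive and resistant library. Cells are thinned to 1000 UMIs on the left and as deposited on the right. Bars start at 0 and error lines are Clopper-Pearson 95% intervals. In the thinned panel the 2 libraries part for all members and for Ly6c2-only cells.

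The members were next set beside 2 other classes of CD8+ T cells from the same library: 232 sensitive and 273 resistant cells with a Havcr2 UMI (TIM-3, a receptor of chronically stimulated T cells), and 505 and 741 cells with none of Itgae, Ly6c2 and Havcr2. Because Itgae, Ly6c2 and Havcr2 drew these classes, the values describe them and test nothing. Genes were counted as called when the ratio of CPM passed 2-fold in a direction. In the sensitive library 3.02% of tested genes were called higher in members than in Havcr2+ cells and 3.64% lower. In the resistant library these percentages were 7.96% and 2.74%. In both libraries together 83 genes were called higher and 85 lower of 5651 tested, and in the marker-filtered cells 36 and 62 of 4851, where 2.47% of sensitive and 1.64% of resistant genes were called higher and 3.97% and 2.26% lower. The genes that left the upper list included Cpxm1 and Fbln1, matrix genes of fibroblasts.

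Ly6c1, Ly6a and Itgb7 were higher in the members than in Havcr2+ cells. Ly6c1 stood at 1222 CPM in sensitive members, 316 in Havcr2+ and 84.9 in the third class, and at 1077, 98.8 and 22.9 CPM in the resistant library. This order was the same in both libraries, and the ratio to Havcr2+ cells was 3.87 (3.47 to 4.32) and 10.9 (9.31 to 12.8). Other-cell barcodes held part of these transcripts. The marker filter took Ly6c1 from 2064 to 1747 UMIs in sensitive members and from 399 to 233 in Havcr2+ cells. In the resistant library it went from 1772 to 732 and from 170 to 75 UMIs. Ly6a, the gene of the stem cell antigen Sca-1, had ratios of 2.48 (2.32 to 2.65) and 7.51 (6.89 to 8.19) to Havcr2+ cells, and of 2.75 and 6.93 after the marker filter. Itgb7, the partner chain of CD103, which the rule did not name, stood at 268, 96.6 and 71.0 CPM in the sensitive and 126, 30.8 and 32.1 CPM in the resistant library. Members had more Itgb7 than either other class in both libraries. Its ratio to Havcr2+ cells was 2.78 (2.27 to 3.42) and 4.10 (3.02 to 5.66), or 3.13 and 5.78 after the filter. Itga1 differed far less, with ratios of 1.70 (1.36 to 2.15) and 1.17 (0.955 to 1.44), and it passed 2-fold in neither library. Cdh1, which encodes E-cadherin itself, the ligand of CD103, had ratios of 4.18 (2.76 to 6.56) and 1.91 (1.38 to 2.67).

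Tcf7, the gene of the transcription factor TCF1 of memory-type T cells, was also higher in members. It had 95 UMIs in sensitive members against 4 in Havcr2+ cells, a ratio of 17.8 with a counting interval of 6.71 to 66.5. In the resistant library it had 50 against 3 UMIs, a ratio of 17.4 (5.63 to 87.3). Against the third class the Tcf7 ratios were 1.78 (1.28 to 2.47) and 2.30 (1.51 to 3.52). Cxcr3, a chemokine receptor that guides T cells into inflamed tissue, was 5.03-fold (3.64 to 7.10) and 3.87-fold (2.63 to 5.84) higher than in Havcr2+ cells. Plac8 was 2.29-fold (2.01 to 2.60) and 2.14-fold (1.93 to 2.39) higher, and Rgs10, which dampens G protein signals, 3.07-fold and 3.18-fold.

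The checkpoint genes Pdcd1 and Lag3 and the granule genes Prf1 and Gzmd were lower in the members. Pdcd1 stood at 181 CPM in sensitive members, 619 in Havcr2+ cells and 554 in the third class, and at 162, 475 and 421 CPM in the resistant library. Lag3, another inhibitory receptor, stood at 139, 862 and 509 CPM, and at 109, 336 and 362 CPM. Both genes were lowest in the members of both libraries, and their order between the other 2 classes differed for Lag3. Tox, a transcription factor of exhausted T cells, had a ratio to Havcr2+ cells of 0.164 (0.114 to 0.233) and 0.286 (0.212 to 0.381), and the costimulatory receptor gene Tnfrsf9 of 0.184 and 0.194. Prf1 was at 0.114 (0.0956 to 0.135) and 0.149 (0.116 to 0.189) of the Havcr2+ level. Gzmd had 1 UMI in sensitive members against 194 in Havcr2+ cells, and 4 against 585 in the resistant library. Gzmb, granzyme B, was at 0.384 (0.364 to 0.404) and 0.583 (0.544 to 0.624), and only the first of these passed 2-fold.

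Against the third class, 2.59% of tested genes were called higher in sensitive members and 2.13% lower, and in the resistant library 7.08% and 2.28%. In both libraries together 126 genes were higher and 56 lower of 6578, and 22 and 42 of 6073 after the marker filter, with 0.989% and 1.01% of genes then called higher and 1.98% and 2.05% lower. Gzma was here on the upper side, at 5.53 times (4.93 to 6.21) the level in sensitive and 5.12 times (4.85 to 5.40) that in resistant cells of the third class. The purinergic receptor gene P2rx7, which is listed among residency genes, was 3.43-fold (2.18 to 5.54) and 2.48-fold (1.54 to 4.02) higher, and Ccr2, a chemokine receptor, 2.40-fold and 2.49-fold. Itgb7 was 3.78-fold and 3.94-fold higher. Tox (0.165 and 0.276), Lag3 (0.273 and 0.302) and Pdcd1 (0.326 and 0.385) were lower by more than 2-fold in both libraries, and so was Prf1 (0.430 and 0.481), of which the filtered ratio in the resistant library was 0.572.

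Ly6c1 and Itgb7, which the rule did not name, were also counted cell by cell. Reads of Ly6c1 and Ly6c2 can be divided in part only, so the Ly6c1 counts are not independent of the choosing gene. In the sensitive library, among members and third-class cells, Ly6c1 was seen in 279 of 309 cells with Ly6c2 and in 85 of 572 without it. Itgb7 was seen in 187 of 309 and 121 of 572. Thinned to 1000 UMIs, where depth is equal, Itgb7 was seen in 25.6% of cells with Ly6c2 and 10.4% of those without in the sensitive library, and in 17.4% and 3.92% in the resistant one. Cells of a library are not replicates, and these are descriptions.

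Itgae-only and Ly6c2-only members differed from each other in both libraries. Among tested genes, 1.44% were called higher in Itgae-only and 4.73% in Ly6c2-only members of the sensitive library, and 3.79% and 15.1% in the resistant library. In both libraries together 7 genes were higher in Itgae-only and 124 in Ly6c2-only members of 3008, and after the marker filter 4 and 5 of 1985, with 1.06% and 0.801% of genes then called higher in Itgae-only and 1.53% and 0.851% in Ly6c2-only members. The longer list was led by Saa3, Col3a1 and other genes of fibroblasts. Of the Ly6c2-only members, 14 sensitive and 37 resistant ones were other-cell barcodes, against 3 and 5 of the Itgae-only members, and for this pair the filtered ratios are given.

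Cd7, a surface protein of T and NK cells, ranked first for Itgae-only members by the naming rule, which takes the weaker of the 2 libraries. It stood at 333 CPM in Itgae-only, 84.7 in Ly6c2-only and 190 in double-positive members of the sensitive library, and at 191, 37.7 and 51.3 CPM in the resistant one. The filtered ratio of Itgae-only to Ly6c2-only members was 3.71 (2.73 to 5.03) and 2.86 (1.87 to 4.45). Tnfrsf9 had a higher filtered ratio in the sensitive library, 5.03 (3.59 to 7.08), and 1.57 (1.05 to 2.35) in the resistant one. Nr4a2, a nuclear receptor induced by antigen signals, had filtered ratios of 2.15 (1.43 to 3.18) and 2.45 (1.66 to 3.66). Gzma was at 3.09 times (2.74 to 3.48) the Ly6c2-only level in sensitive and 2.34 times (2.19 to 2.51) in resistant members, and after the filter at 2.79 and 1.27 times. A handful of cells set these levels. In the sensitive library 7 of 67 Itgae-only members held Gzma (10.4%), a share close to the 9.79% of Ly6c2-only members, and 5 cells held 86.6% of the 494 Itgae-only UMIs. Among resistant members, 1 Ly6c2-only cell held 1067 of 1747 filtered Gzma UMIs, and without the richest cell of each kind the filtered Gzma ratio there was 2.62 (2.38 to 2.89). Pdcd1 had filtered ratios of 1.46 (1.09 to 1.93) and 1.59 (1.17 to 2.17). Without the richest cells these were 1.31 (0.953 to 1.77), which includes 1, and 1.62 (1.17 to 2.23). Foxp3 had 24 UMIs in Itgae-only against 2 in Ly6c2-only sensitive members and 7 against 0 in the resistant library. The Itgae-only Foxp3 UMIs came from 6 of 67 sensitive and 4 of 77 resistant cells.

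Ly6c1, Klf2 and Gzmk leaned to the Ly6c2-only members. Ly6c1 had filtered ratios of 0.0801 (0.0538 to 0.115) and 0.0742 (0.0466 to 0.113), with the reservation on shared sequence given above. Klf2, a transcription factor that keeps T cells in circulation, was at 0.376 (0.221 to 0.605) and 0.424 (0.241 to 0.713). Gzmk, granzyme K of memory-type cells, was at 0.382 (0.263 to 0.540) and 0.486 (0.290 to 0.785), but its resistant ratio without the filter was 0.876 (0.530 to 1.40). Gzmb was at 0.821 (0.716 to 0.937) in the sensitive and 0.350 (0.294 to 0.415) in the resistant library, where 1 Ly6c2-only cell held 355 of 730 Gzmb UMIs and the ratio without the richest cells was 0.558 (0.455 to 0.682). In the same way the resistant Klf2 ratio went to 0.275 (0.130 to 0.527). Itgb7 was at 0.849 (0.634 to 1.12) and 0.691 (0.461 to 1.02), and without the richest cells at 0.812 (0.600 to 1.08) and 0.608 (0.391 to 0.926). Double-positive members held the highest Itgb7 level of the 3 kinds in both libraries, 340 and 236 CPM.

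Between the sensitive and resistant library, the members differed in granzyme genes, in both directions. Gzma stood at 968 CPM in sensitive and 2719 in resistant members, a ratio of 0.356 (0.336 to 0.377), and at 1082 and 3959 CPM after the marker filter, a ratio of 0.273 (0.258 to 0.289). A few cells held a large part of these transcripts. A Gzma UMI was seen in 42 of 376 sensitive members (11.2%) and 68 of 285 resistant ones (23.9%), and the 5 richest cells held 41.6% and 44.6% of all Gzma UMIs. The richest resistant cell had 1067 UMIs and the richest sensitive cell 183. Without the richest cell of each library the ratio was 0.415, so it did not rest on a single cell. Thinned to 1000 UMIs, 8.53% (5.91 to 11.8) of sensitive and 20.4% (15.9 to 25.6) of resistant members held Gzma, against 0.126% and 0.357% of fibroblasts. More members thus held Gzma in the resistant library, at any depth tried, and among members with a UMI the median was 17.5 in sensitive and 22 in resistant cells.

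**Figure D3:**
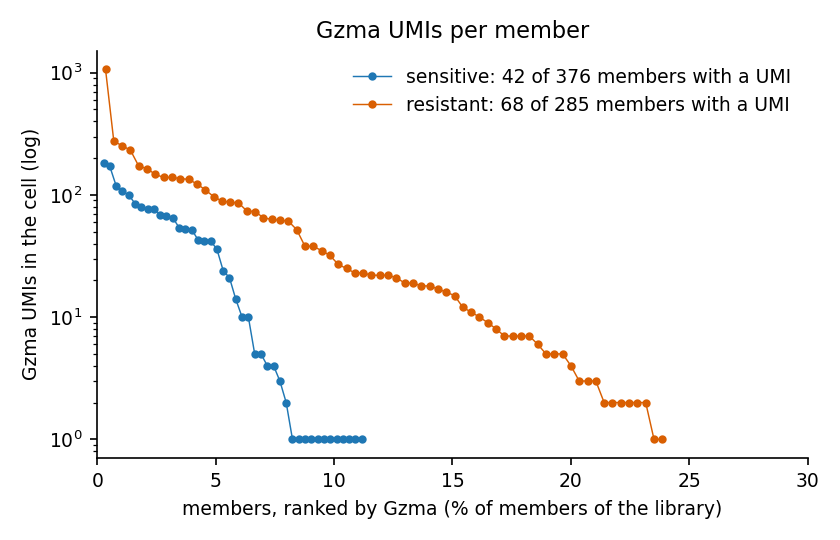
Gzma UMIs per member on a log axis, with the members that hold a Gzma UMI ranked from the richest down, for the sensitive (42 cells) and resistant (68 cells) library. The resistant curve is the higher and longer one, and runs from 1067 UMIs, where the sensitive curve starts at 183.

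Gzma was seen in 19 of 141 sensitive members with an Itgae UMI (13.5%, 8.31 to 20.2) and in 23 of 235 Ly6c2-only members (9.79%, 6.31 to 14.3), with overlapping intervals. In the resistant library it was seen in 43 of 133 members with Itgae (32.3%, 24.5 to 41.0) and 25 of 152 Ly6c2-only members (16.4%, 10.9 to 23.3). Gzmc, a granzyme whose gene lies in another cluster on chromosome 14, was at 24.9 and 107 CPM, a ratio of 0.233 (0.162 to 0.327), but 121 of its 176 resistant UMIs came from 1 cell and the ratio without the richest cells was 0.443. Gzmk went the other way, at 301 CPM in sensitive and 102 in resistant members, a ratio of 2.95 (2.47 to 3.53) and 2.32 (1.93 to 2.80) after the filter. It was spread over many cells: after thinning, 25.1% of sensitive and 14.1% of resistant members held it, against 0 of 795 and 0 of 560 fibroblasts. Gzmb, with a ratio of 1.58 (1.47 to 1.69) and 1.17 (1.09 to 1.26) after the filter, and Prf1, with 1.90 (1.44 to 2.52) and 1.54 (1.13 to 2.10), did not pass 2-fold. The Gzmb ratio leaned on 1 resistant member with 355 of 1288 UMIs, where the richest sensitive member held 148 of 2085. Of 14 tested granule genes 2 were called higher in sensitive members (Gzmk and Fasl) and 2 in resistant ones (Gzma and Gzmc), and after the filter 1 and 3, with Gzmf added. The filtered Gzmf call rested on 19 sensitive and 53 resistant UMIs, of which 17 and 38 lay in 1 Ly6c2-only cell each. Over all 6455 tested genes 2.15% were called higher in sensitive and 6.86% in resistant members, and after the filter 1.64% and 0.612% of 5228. Without the fibroblast-gene barcodes alone these were 1.75% and 0.938% of 5436, and scaled by the median ratio 1.49% and 7.48% of 6455.

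Icos, Tnf and Ccr2, genes of costimulation, a cytokine and a chemokine receptor, were higher in sensitive members. Icos, a costimulatory receptor of activated T cells, was at 228 CPM in sensitive and 66.2 in resistant members, a ratio of 3.44 (2.78 to 4.30), and 2.78 (2.21 to 3.53) after the filter. After thinning, 17.9% of sensitive and 8.10% of resistant members held an Icos UMI, and 0 of 795 and 0 of 560 fibroblasts did. Tnf, the gene of tumor necrosis factor, was at 107 and 33.4 CPM, a ratio of 3.21 (2.36 to 4.42) and 2.67 (1.90 to 3.81) filtered. Ccr2 was at 100.1 and 32.8 CPM, a ratio of 3.05 (2.23 to 4.22) and 3.28 (2.24 to 4.93) filtered. Its thinned shares were 8.80% and 2.11%, against 0.126% and 0.179% of fibroblasts. All of these genes kept a ratio over 2-fold in the filtered members. Several of these differences were found in the other CD8+ T cell classes too, in a comparison added after the values had been seen. The sensitive to resistant ratio of Icos was 3.19 (2.76 to 3.69) in Havcr2+ cells and 2.56 (2.24 to 2.94) in the third class, that of Ccr2 3.26 and 3.17, and that of Gzmk 2.17 and 2.92. Gzma was at 0.329 (0.294 to 0.369) in the third class but at 1.21 (1.15 to 1.29) in Havcr2+ cells. Tnf was at 0.829 (0.584 to 1.17) in Havcr2+ cells, or 1.23 (0.805 to 1.88) filtered, and at 1.52 (1.20 to 1.91) in the third class. Icos, Ccr2 and Gzmk thus moved the same way in all classes, and Gzma in the members and the third class. The Tnf ratio was higher in the members than in the other classes. With 1 library per group, none of these differences is shown to be particular to the members.

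Others passed 2-fold only before the filter. Cxcr3 had a ratio of 2.24 (1.81 to 2.78) and 1.74 (1.39 to 2.18) filtered, and Ifng, the gene of interferon gamma, 2.13 (1.79 to 2.54) and 1.70 (1.41 to 2.05). Itgb7 had 2.12 (1.80 to 2.51) and 1.62 (1.37 to 1.94). The median over all tested genes was 1.08 with and without the filter. Of 15 tested cytokine genes 4 were called higher in sensitive members (Ifng, Tnf, Csf2 and Tnfsf14) and 1 in resistant members (Penk), and after the filter 2 of 11 (Tnf, and Ccl1 with 76 of its 84 sensitive UMIs in 1 cell) and none. Beside these counts stand the shares over all tested genes, 2.15% and 6.86%, or 1.64% and 0.612% filtered.

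Of 15 tested immediate early genes, which antigen signals switch on within minutes, Nr4a1 and Dusp2 were called higher in sensitive members and none in resistant ones, with and without the filter. Among all tested genes 2.15% were called higher in sensitive and 6.86% in resistant members, or 1.64% and 0.612% filtered. Dusp2, a phosphatase that ends MAP kinase signals and is induced by them, was at 740 and 283 CPM, a ratio of 2.62 (2.35 to 2.92) and 2.02 (1.81 to 2.27) filtered. Nr4a1, which reports recent antigen receptor signals, had 2.45 (1.96 to 3.08) and 2.50 (1.90 to 3.33), but its ratio fell to 1.31 under the setting that lowered it most. Rora, a transcription factor, had 2.13 (1.58 to 2.90) and 2.44 (1.68 to 3.63), and Il12rb2, a chain of the interleukin 12 receptor, 3.57 (1.86 to 7.43) and 3.30 (1.58 to 7.70) on 44 and 12 UMIs. Of 19 tested genes of T cell receptor signaling, Icos alone passed 2-fold, and the list's median was 1.48 and 1.19 filtered. Rrad, Gramd3 and Irak2, which the naming rule gave with and without the filter, had ratios of 4.10 (2.46 to 7.17), 2.93 (2.31 to 3.76) and 4.20 (2.27 to 8.37). Filtered, these were 3.89 (2.18 to 7.44), 2.26 (1.76 to 2.93) and 3.53 (1.77 to 7.81). A single cell held 25 of the 80 sensitive Rrad UMIs, and Irak2 had 56 against 13 UMIs before the filter.

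The 12 genes that the naming rule gave on the resistant side before the filter had too few UMIs to be tested after it. Mcpt1, a mast cell protease, had 732 of its 736 UMIs in 1 barcode, and Reg1 had 181 of 208. Sfrp2, a secreted protein of fibroblasts, had 744 UMIs in resistant and 46 in sensitive members, and 1 and 3 after the filter. The others were Mcpt2, Igfbp5, Reg3g, Cma2, Sbsn, Dmkn, Col8a1, Mmp3 and Tm4sf1. On the sensitive side the same was true of Col6a5, with 92 of 127 UMIs in 1 barcode, and of Slpi, Ccl6 and Cxcl2. After the filter the naming rule gave Gzmc, Gzma, Klra5, Gzmf, Car2, Nrn1, Adgrg1, Cd200r1, Fcer1g, Lat2, Ndufb1-ps and Ifi27l2a on the resistant side. Of 9 tested genes of the NK receptor list, Tyrobp alone was called higher in resistant members and none in sensitive ones, with a median ratio of 1.10, and after the filter Tyrobp and Fcer1g were, with a median of 0.884. The share of all tested genes called higher in resistant members was 6.86%, and 0.612% filtered. Klra5, of the Ly49 family, had a ratio of 0.346 (0.233 to 0.505) and 0.278 (0.185 to 0.411) filtered, and Fcer1g, a signaling adaptor of NK receptors, 0.549 (0.464 to 0.649) and 0.491 (0.398 to 0.604). Tyrobp, the gene of the adaptor DAP12, had 0.476 (0.363 to 0.621) and 0.486 (0.302 to 0.773), the latter with 33 of 48 resistant UMIs in 1 cell. Car2, carbonic anhydrase 2, had 0.450 (0.320 to 0.626) and 0.315 (0.220 to 0.445).

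Itga1, Pdcd1 and Lag3 passed 2-fold in neither direction. Itga1 was at 150 and 122 CPM, a ratio of 1.23 (1.02 to 1.48), and 1.01 (0.830 to 1.24) filtered. After thinning 15.5% and 14.8% of members held Itga1, against 4.28% and 2.14% of fibroblasts. Of 12 tested residency genes Itgb7 alone passed 2-fold, and none did after the filter. Pdcd1 was at 181 and 162 CPM, a ratio of 1.11 (0.942 to 1.32), and Lag3 had a ratio of 1.27 (1.04 to 1.55) in the same cells. Of 12 tested checkpoint genes, Ctla4 was called higher in sensitive members, with a ratio of 2.22 (1.86 to 2.67), and Cd200 and Cd200r1 in resistant ones. After the filter Cd200r1 alone of 11 was called, at 0.316 (0.167 to 0.574) on 17 and 38 UMIs, and Ctla4 was at 1.80 (1.48 to 2.18). The shares of all tested genes called higher in sensitive and in resistant members were 2.15% and 6.86%, or 1.64% and 0.612% filtered. Ly6a reversed with the filter, from a ratio of 0.886 (0.848 to 0.925) to 1.28 (1.21 to 1.35), and Ly6c1 went from 1.14 (1.06 to 1.21) to 1.69 (1.55 to 1.84). None of 10 heat shock genes and none of 12 MHC class I genes passed 2-fold with or without the filter. The libraries differed in quality, with a median mitochondrial share of 2.41% in sensitive and 5.42% in resistant members, and the part of this in the differences was tested only by the limits on that share given among the settings.

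**Figure D4:**
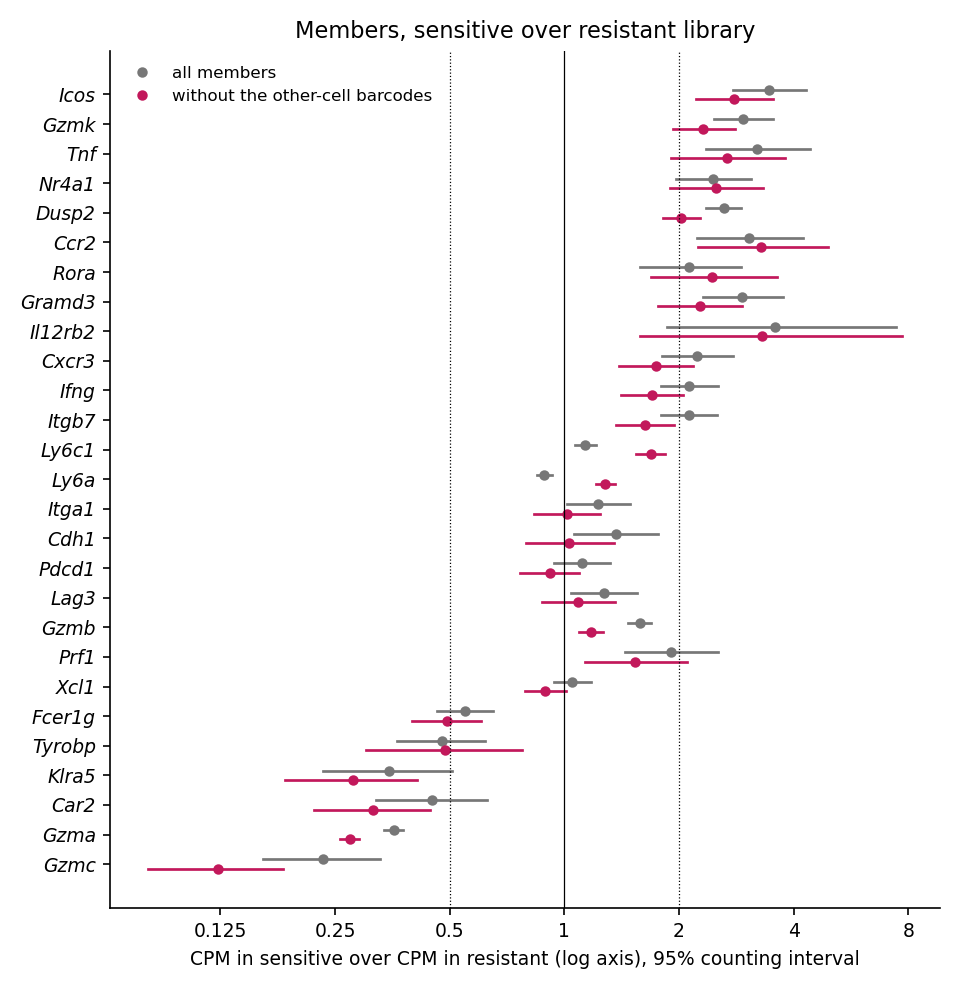
Ratio of CPM in sensitive to resistant members on a log axis for named genes, with exact conditional 95% intervals, for all members and for the marker-filtered members. Gzma and Gzmc lie left of 0.5 and Icos, Gzmk, Tnf and Ccr2 right of 2 in both sets, while Ly6a changes side.

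T cell receptor V segments were also compared, as far as 3′ libraries show them, and the segments named here were picked after their values had been seen. A beta V segment was seen in 310 of 376 sensitive and 231 of 285 resistant members. Trbv14 was present in 6.45% (3.99 to 9.79) of sensitive members with a beta segment, against 37.9% (31.1 to 45.0) of Havcr2+ cells and 23.9% (19.6 to 28.6) of the third class. In the resistant library these shares were 8.23%, 4.37% and 6.98%, with intervals that overlap. Trav16d-dv11, an alpha segment, was present in 6.33% (3.59 to 10.2) of sensitive members with an alpha segment against 19.4% and 32.0% in the other classes, and in 12.1% of resistant members against 20.8% and 18.5%. Other segments were more frequent in members of 1 library. Trav12-3 was present in 12.7% of sensitive members (8.71 to 17.6) against 3.12% and 2.11%, and Trbv1 in 19.5% of resistant members (14.6 to 25.2) against 6.55% and 7.97%. Trbv1 was seen in 34 of 310 sensitive members, against 5.56% and 12.0% of the other classes, and resistant members had Trav12-3 in 2.11%, against 0.926% and 0.786%. Each library pools 3 mice and its cells may belong to expanded clones, so cells that share a segment are not independent, and these shares describe the pools.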

How the data were processed

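Single-cell RNA of tumor T cells was measured in 1 library per group, sensitive and resistant. The authors aligned reads to mm10 and deposited raw UMI counts per gene and barcode, made with Cell Ranger 6.0.0 per the file headers, without normalization. The libraries held 3949 and 6116 barcodes and 31690845 and 35908799 UMIs, with a median of 4460 and 3354 UMIs. Barcodes under 500 genes or over 10% mitochondrial UMIs were dropped, which left 3560 and 3250. The 3 whole-tumor libraries list other features and were not used here for comparisons.

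UMIs were summed over the cells of a class and scaled to CPM (Python 3.11.15, numpy 2.4.6, pandas 2.3.3). Ratios of CPM, with exact conditional binomial intervals (scipy 1.17.1), were taken for genes with at least 50 UMIs over both classes and called past 2-fold. Shares had Clopper-Pearson intervals, and their ratio a log-scale delta-method interval. The scripts were tested on simulated data. No doublets were removed for the values reported. Scrublet (scanpy 1.11.5), which marked 112 and 159 barcodes, served as an alternative, beside other depth, mitochondrial, gate and scaling limits. Members, gene lists and tests were chosen with earlier results of these data known. Named genes were, per direction, the 12 whose interval bound nearest to 1 lay farthest from it (10 for the Itgae-only and Ly6c2-only pair), without receptor segments, mitochondrial, ribosomal and unnamed genes, plus genes of the lists by role. Figures were drawn with matplotlib 3.10.9. Some listed genes are not reported here.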

Additional observations from a re-analysis of the deposited data

Results flagged for a closer look

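For a few listed genes the 2 libraries gave ratios on opposite sides of 1, each with an interval that excludes 1, among all members and again among the marker-filtered members. The difference between the libraries was not tested. Gzma was at 0.551 of the Havcr2+ level in sensitive members and at 1.88 times it in resistant members, and at 0.552 and 2.37 after the filter. These levels rest on few cells, since 5 Havcr2+ cells held 68.7% of the sensitive and 72.5% of the resistant Gzma UMIs, and by share of cells sensitive members were not lower (11.2% with a UMI, against 9.91% of Havcr2+ cells). Ccl4, a chemokine of killer cells, was at 0.525 and 1.17 of the Havcr2+ level (0.515 and 1.68 filtered). A single resistant member held 288 of 1944 Ccl4 UMIs, and without the richest cells the ratio was 1.03 (0.962 to 1.10), or 1.47 filtered. Ccl4 was also at 0.883 and 1.41 of the level in cells without Itgae, Ly6c2 and Havcr2 (0.894 and 1.89 filtered). Ccl1, another chemokine, was at 3.31 and 0.237 of the Havcr2+ level (3.93 and 0.508 filtered), but 76 of its 84 sensitive UMIs came from 1 cell.

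Between Itgae-only and Ly6c2-only members, the chemokine gene Ccl5 had a ratio of 0.815 (sensitive) and 2.65 (resistant) (0.774 and 1.70 filtered). Ldha, a glycolytic enzyme, had 1.47 and 0.676 (1.41 and 0.771 filtered). Tyrobp had 3.16 and 0.470 (9.45 and 0.119 filtered), but the filtered ratios rest on 16 UMIs of 1 Itgae-only cell against 6 in the sensitive library and on 1 against 13 UMIs in the resistant one, under the limit of 50.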

How the results depend on the processing

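The member share ratio and the Gzma and Itga1 share ratios stayed within their counting intervals under every setting run. Counts of genes past 2-fold moved more. Between the libraries, genes higher in sensitive members (139) numbered 617 when thinned to 1000 UMIs, 269 at no more than 5% mitochondrial UMIs and 488 with a limit of 10 UMIs, and genes higher in resistant members (443) numbered 1262 with that limit. The 2 filters on other-cell barcodes were chosen after seeing the data. Without fibroblast-gene barcodes the resistant count was 51, and without all other-cell barcodes the counts were 86 and 32. Genes higher in members numbered 30 and 36 against Havcr2+ cells under these 2 filters, and 23 and 22 against cells without Itgae, Ly6c2 and Havcr2. Genes higher in Itgae-only members (7) numbered 21 when thinned, 11 without Scrublet doublets, and 3 and 4 under the filters, and those higher in Ly6c2-only members (124) numbered 6 and 5. Of single genes past 2-fold, these reversed, and Ly6a, under 2-fold, also changed side with the filter (0.886 to 1.28). The Mcpt1 ratio became 10.1 with at least 2 UMIs of Itgae and Ly6c2, 1.46 without the top cell and 2.12 without other-cell barcodes. Reg1 became 1.50 and 1.41 and Sfrp2 2.25 and 2.12 under the filters. Gzmc in resistant members against cells without Itgae, Ly6c2 and Havcr2 went from 3.16 to 0.429 at no more than 5% mitochondrial UMIs. In the sensitive library, leaving out the richest cell of each class, an alternative added after seeing the data, took Ccl1 in members against Havcr2+ cells from 3.31 to 0.374 and Rrad in Itgae-only against Ly6c2-only members from 4.35 to 0.918. The cause was not tested. No paired analysis was possible because each group had 1 library. Depth limits genes under 50 UMIs.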
